A study of Mus musculus with 20 samples.

Results

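The genes described here carry the H2- symbols of the mouse major histocompatibility complex (MHC) or belong to the machinery that serves its products. Members were every row of the count table whose symbol starts with H2- and that held at least 10 counts over all 20 libraries, plus B2m, Tap1, Tap2, Tapbp, Psmb8, Psmb9, Psmb10, Nlrc5, Ciita and Cd74. Of 38 H2- symbols 31 met the minimum, which with the 10 named genes gave 41 members of 22066 symbols. By class these were 2 classical class I genes, 20 non-classical class I genes, 8 class II genes, 4 genes of the light chain and peptide loading, 3 immunoproteasome subunits, 2 transactivators, the invariant chain and H2-Ke6. H2-Ke6 lies in the MHC region and encodes a hydroxysteroid dehydrogenase, not an MHC molecule. The members in the expression test numbered 33, and the other 8 (H2-Oa, H2-Ob, H2-M10.3, H2-M11, H2-M2, H2-M9, H2-Q10 and H2-T3) were under its filter on low counts.

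Bulk poly(A) RNA of testis was sequenced in 5 groups of 4 samples from male NSG mice (NOD scid gamma), aged 6 weeks at the start. VCR mice received vincristine sulfate, a drug that binds tubulin, at 0.5 mg/kg into the peritoneum weekly for 3 weeks from day 69, and their labels name no injected cells. Low-VCR and High-VCR mice had been injected with 400000 cells of a patient-derived B-ALL xenograft (a human B-lineage acute leukaemia), were given vincristine in the same way, and are labelled by low or high leukaemia infiltration. ALL mice carried the leukaemia cells without the drug, and NC mice were the normal controls, with saline as the labels' substitute for the drug. All mice share the NSG genotype, which lacks mature T, B and NK cells and keeps macrophages, neutrophils and defective dendritic cells. Sequenced libraries held 9.43 to 16.4 M counts, so that 3 counts equalled 0.167 to 0.365 CPM (counts per M counts) in a single library. The library numbers of VCR and NC (A-1 to A-8) form a range apart from those of the engrafted groups. A difference between these sets cannot be told apart from that range. Low-VCR, High-VCR and ALL each hold libraries from A-26 to A-33 and from A-102 to A-116. Each comparison of vincristine with its own control thus lies within the first range or is spread over both ranges of the engrafted groups.

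MHC class I molecules are a heavy chain paired with beta-2 microglobulin (B2m), and they show peptides that the proteasome cuts, the Tap1 and Tap2 pump carries into the endoplasmic reticulum and tapasin (Tapbp) helps to load. Class II molecules are pairs of an alpha and a beta chain, held by the invariant chain Cd74 until H2-DM exchanges its remnant for peptides from endosomes, chiefly in macrophages, dendritic cells and B cells. Nlrc5 activates the promoters of class I genes and Ciita those of class II genes, and interferon induces both sets. Germ cells of the testis carry little class I, whereas its macrophages and other somatic cells carry more.

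Promoter sequences of 4 members are printed, for a class I heavy chain, the light chain, a class II chain and H2-M5, a gene that fell. They are the 200 bases before the transcription start in RefSeq's GRCm38.p6 annotation, on the strand of the gene, with searched motifs in capitals. The motifs were TGACG, the core of the X2 box, and ATTGG, the Y box, each on both strands. Both boxes belong to the module through which Nlrc5 and Ciita act.
H2-K1, chr17:34000348-34000547, minus strand: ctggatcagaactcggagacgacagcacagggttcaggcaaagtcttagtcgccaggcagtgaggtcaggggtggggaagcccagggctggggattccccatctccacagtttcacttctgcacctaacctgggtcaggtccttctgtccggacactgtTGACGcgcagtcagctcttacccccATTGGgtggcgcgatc
B2m, chr2:122147487-122147686, plus strand: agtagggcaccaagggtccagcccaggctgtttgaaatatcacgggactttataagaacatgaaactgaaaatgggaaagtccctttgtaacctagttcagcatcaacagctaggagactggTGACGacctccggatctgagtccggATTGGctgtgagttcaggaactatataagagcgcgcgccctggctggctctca
H2-Aa, chr17:34287824-34288023, minus strand: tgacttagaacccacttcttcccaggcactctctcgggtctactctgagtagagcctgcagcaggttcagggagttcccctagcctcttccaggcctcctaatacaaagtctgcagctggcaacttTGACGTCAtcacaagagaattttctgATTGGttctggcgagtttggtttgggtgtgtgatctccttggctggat
H2-M5, chr17:36989534-36989733, minus strand: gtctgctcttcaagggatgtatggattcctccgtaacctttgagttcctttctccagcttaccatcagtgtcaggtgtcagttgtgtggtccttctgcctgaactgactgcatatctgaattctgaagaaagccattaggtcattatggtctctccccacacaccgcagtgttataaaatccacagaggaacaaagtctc
In H2-Aa the capitals TGACGTCA hold the X2 core on both strands, overlapping by 2 bases. Of 27025 promoters of this length, 15.8% held TGACG and 30.0% held ATTGG. Among the 32 members with an entry, 12 held TGACG and 25 held ATTGG. Neither motif was in the windows of 6 members, which were H2-M5, H2-DMa, H2-Q10 and H2-T3 as well as Psmb8 and Psmb10, which rose. A match describes the sequence and was not tested for binding.

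In mice given vincristine, the classical class I, light chain and loading, and immunoproteasome members stood higher than in mice without it. Class II genes split, and the further list of class I loading and trimming genes went both ways. A pair of non-classical class I genes (H2-Bl and H2-M5) stood lower in VCR and High-VCR, while in Low-VCR only H2-Bl passed, and not in every fit. Scaling libraries on Sertoli cell or macrophage markers, however, left 5 to 13 members higher and 9 to 12 lower. Those scalings also lowered the median of all genes, and on the Sertoli list few of all called genes were higher, as given at the end. Relative to NC, 24 of the 33 tested members were higher and 2 lower in VCR, against 77.7% of all 16534 tested genes called, 42.1% higher and 35.6% lower (edgeR, adjusted p under 0.05). Relative to ALL, 22 were higher and 1 lower in Low-VCR, against 51.6% of all genes called, 36.4% higher and 15.2% lower. In High-VCR 22 were higher and 4 lower relative to ALL, against 72.9% of all genes called, 42.4% higher and 30.5% lower. The median log2 fold change of the tested members was 2.18 (VCR), 1.66 (Low-VCR) and 1.79 (High-VCR), where the median over all tested genes was 0.10, 0.08 and 0.16. Below, log2 fold changes are given ± standard error with n = 4 libraries per group, and "rose" or "fell" is used where the adjusted p was under 0.05. All 22 members that rose in Low-VCR, and 22 of the 24 (91.7%) that rose in VCR, were the same genes. These comparisons share no library but come from the same fit. The overlap over all tested genes was not computed, so it is not known how far that of the members exceeds it.

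Cell composition moved together with these values. The summed CPM of 20 Sertoli cell markers was 9202 to 13992 CPM (VCR), 7156 to 9253 (Low-VCR), 7313 to 12207 (High-VCR), 2102 to 2235 (ALL) and 2313 to 2643 (NC). All 20 markers rose in every vincristine comparison, while round spermatid markers fell (10, 5 and 10 of 10 in VCR, Low-VCR and High-VCR). Summed CPM of 10 round spermatid markers was 22.6 to 488 CPM (VCR), 684 to 1483 (Low-VCR), 405 to 682 (High-VCR), 2369 to 2695 (ALL) and 2344 to 2456 (NC). The macrophage list of 15 genes summed to 831 to 1329 CPM (VCR), 653 to 764 (Low-VCR), 648 to 1206 (High-VCR), 262 to 309 (ALL) and 246 to 265 (NC). In bulk tissue, fewer cells of a type and less RNA per cell cannot be told apart, so changes are also given below with libraries scaled on these lists. That scaling shifted the median of all genes by -2.16, -1.95 and -2.19 (log2) in VCR, Low-VCR and High-VCR for the Sertoli list and by -2.05, -1.37 and -1.73 for the macrophage list.

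**Figure D1:**
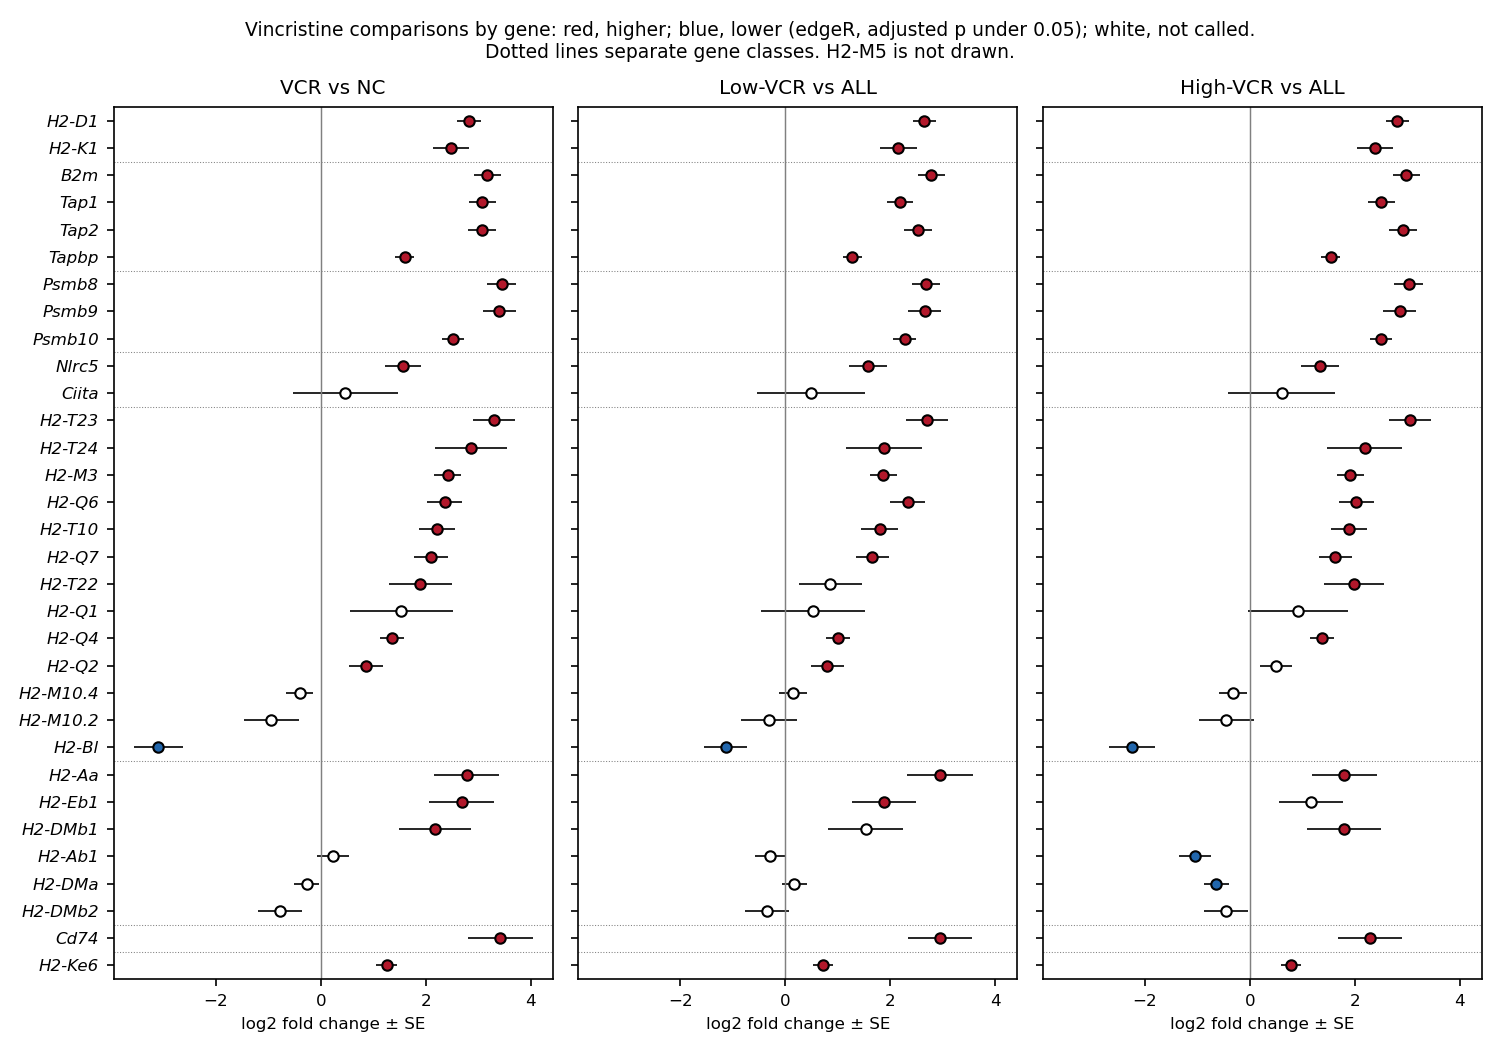
Log2 fold changes ± SE of 32 tested members (H2-M5 is not drawn, since VCR held no count of it) in VCR relative to NC, Low-VCR relative to ALL and High-VCR relative to ALL, 4 libraries per group, with genes grouped by class. Classical class I, loading and immunoproteasome genes all lie to the right of 0 in the 3 panels, class II genes lie on both sides, and scaling on cell-type lists turns several of these signs, as drawn in the plot of the 3 scalings.

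The classical class I genes H2-D1 and H2-K1, whose products present peptides to cytotoxic T cells, both rose in every vincristine comparison. H2-D1 stood at 403, 358, 297 and 274 CPM in the VCR libraries, 319.5, 218, 273 and 279 in those of Low-VCR, 353, 179, 288 and 400.0 in those of High-VCR, 48.8, 41.1, 45.1 and 38.7 in those of ALL, and 46.6, 56.4, 39.1 and 46.2 in those of NC. All 12 vincristine-treated libraries lay above all 8 untreated ones, and H2-D1 changed by 2.82 ± 0.22 (adjusted p 3.47e-08) for VCR over NC, 2.65 ± 0.22 (adjusted p 5.54e-07) for Low-VCR over ALL and 2.81 ± 0.22 (adjusted p 5.49e-08) for High-VCR over ALL. H2-K1 stood at 12.5, 9.41, 5.5 and 5.47 CPM in the VCR libraries, 8.48, 4.83, 4.39 and 5.15 in those of Low-VCR, 5.29, 5.58, 6.17 and 9.76 in those of High-VCR, 1.63, 0.91, 1.37 and 1.21 in those of ALL, and 2.19, 0.968, 1.16 and 1.57 in those of NC. It changed by 2.48 ± 0.34 (adjusted p 5.01e-06) for VCR over NC, 2.15 ± 0.35 (adjusted p 6.25e-05) for Low-VCR over ALL and 2.38 ± 0.35 (adjusted p 1.06e-05) for High-VCR over ALL, with no overlap between treated and untreated libraries. The reference genome carries the K and D genes of another strain than NOD mice, and near-identical copies of class I genes may divide reads, so the levels of H2-K1 and H2-D1 were not compared with each other. Scaled on the Sertoli list, H2-D1 remained higher, at log2 changes of 0.63 (VCR), 0.72 (Low-VCR) and 0.54 (High-VCR), whereas H2-K1 did not pass (0.23, 0.25 and 0.16).

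B2m, the light chain shared by all class I molecules, stood at 629.9, 434, 328 and 390.5 CPM in the VCR libraries, 361, 276, 232 and 294 in those of Low-VCR, 412, 201, 286 and 431 in those of High-VCR, 47.8, 41.7, 39.5 and 40.0 in those of ALL, and 37.1, 55.5, 47.7 and 56.8 in those of NC. All treated libraries lay above all untreated ones, and B2m changed by 3.18 ± 0.26 (adjusted p 3.79e-08) for VCR over NC, 2.78 ± 0.25 (adjusted p 8.67e-07) for Low-VCR over ALL and 2.98 ± 0.26 (adjusted p 6.66e-08) for High-VCR over ALL. Tap1, a subunit of the peptide pump, stood at 77, 63.8, 40.8 and 43.9 CPM in the VCR libraries, 33.9, 31.6, 30.0 and 37 in those of Low-VCR, 50.4, 24.6, 36.6 and 54.1 in those of High-VCR, 7.07, 7.28, 7.52 and 7.28 in those of ALL, and 5.48, 8.71, 4.94 and 7.5 in those of NC. It changed by 3.08 ± 0.26 (adjusted p 3.83e-08) for VCR over NC, 2.18 ± 0.25 (adjusted p 2.41e-06) for Low-VCR over ALL and 2.51 ± 0.25 (adjusted p 1.94e-07) for High-VCR over ALL, and all treated libraries lay above all untreated ones. Its partner Tap2 rose by 3.06, 2.52 and 2.92 (log2) and Tapbp by 1.60, 1.27 and 1.54, in VCR, Low-VCR and High-VCR. Scaled on the Sertoli list B2m and Tap2 remained higher in all 3 comparisons and Tap1 in VCR alone, while Tapbp turned lower at -0.61, -0.69 and -0.70. The counting's strand setting is not given in the sources used here, and the annotation places Tap1 and Psmb9 on opposite strands over shared bases.

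The 3 immunoproteasome subunits, which replace the constitutive catalytic subunits of the proteasome and change the peptides it yields, rose together. Psmb8 stood at 46.6, 35.8, 25.4 and 28.6 CPM in the VCR libraries, 20.8, 16.7, 18.5 and 21.8 in those of Low-VCR, 33.2, 14.3, 20.6 and 30.6 in those of High-VCR, 3.37, 2.83, 3.03 and 2.87 in those of ALL, and 2.92, 4.2, 2.04 and 3.3 in those of NC. It changed by 3.45 ± 0.27 (adjusted p 3.65e-08) for VCR over NC, 2.68 ± 0.27 (adjusted p 1.14e-06) for Low-VCR over ALL and 3.02 ± 0.27 (adjusted p 8.15e-08) for High-VCR over ALL, and no treated library overlapped an untreated one. Psmb9 rose by 3.40, 2.65 and 2.85 (log2) and Psmb10 by 2.52, 2.27 and 2.50, in VCR, Low-VCR and High-VCR. The constitutive subunits Psmb5, Psmb6 and Psmb7 summed to 513 to 551 CPM (VCR), 481 to 543 (Low-VCR), 456 to 516 (High-VCR), 472 to 529 (ALL) and 491 to 551 (NC). Of these, Psmb5 rose by 0.28 and Psmb6 fell by 0.24 in VCR, and Psmb6 fell by 0.37 in High-VCR. The share of the 3 immunoproteasome subunits in the summed counts of all 6 catalytic subunits was 11.8 to 19.95% (VCR), 10.2 to 12.4 (Low-VCR), 8.52 to 16.6 (High-VCR), 1.9 to 2.48 (ALL) and 2.16 to 2.9 (NC). This share needs no scaling of libraries, and the treated and untreated groups did not overlap in it. A change in cell composition can still move the share, and its part was not tested.

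**Figure D2:**
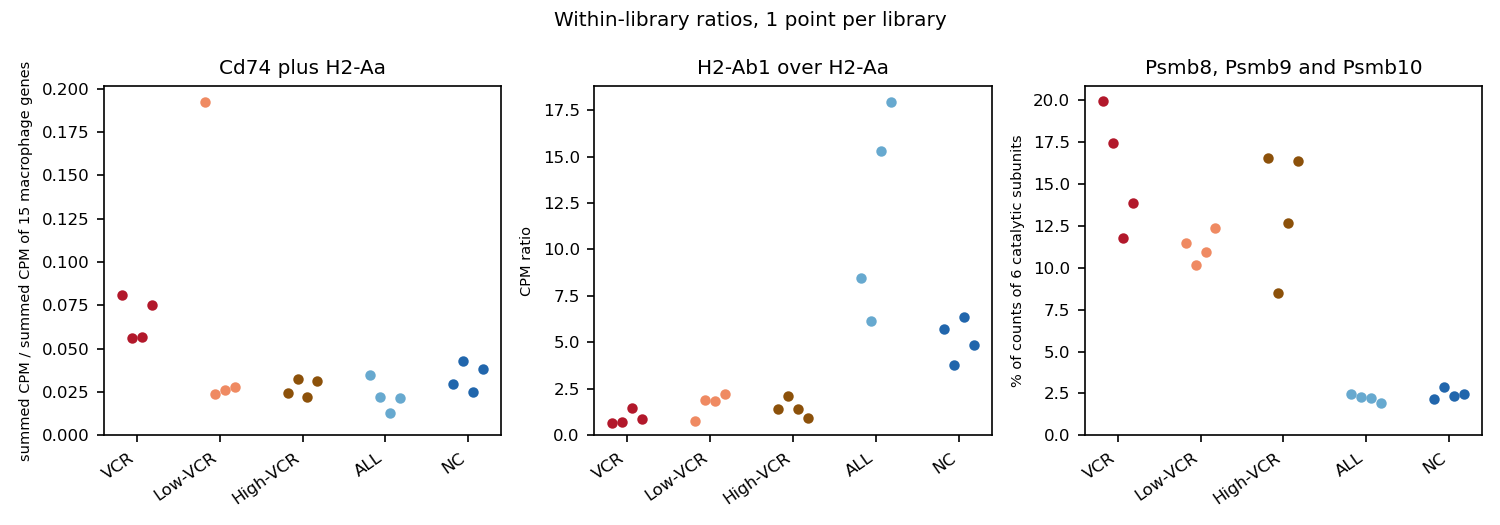
Ratios within each library, which no scaling of libraries alters but cell composition can, with 1 point per library and groups of 4. Cd74 plus H2-Aa per macrophage list was highest in the library Low-VCR 1 (the order of the groups differs with H2-Ab1 and H2-Eb1 added, as given in the text), H2-Ab1 over H2-Aa was 0.654 to 2.20 in the 12 treated libraries against 3.79 to 17.9 in the 8 untreated ones, and the immunoproteasome share was 8.52% to 19.95% against 1.90% to 2.90%.

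Nlrc5, the transactivator of class I genes, stood at 4.87, 3.64, 2.42 and 3.27 CPM in the VCR libraries, 5.1, 2.15, 3.08 and 2.47 in those of Low-VCR, 3.39, 1.62, 2.76 and 3.07 in those of High-VCR, 1.52, 1.01, 0.976 and 0.772 in those of ALL, and 1.95, 1.08, 0.775 and 1.05 in those of NC. It changed by 1.56 ± 0.35 (adjusted p 0.000608) for VCR over NC, 1.57 ± 0.35 (adjusted p 0.00134) for Low-VCR over ALL and 1.33 ± 0.35 (adjusted p 0.00288) for High-VCR over ALL, and treated libraries lay above untreated ones within each comparison. Scaled on the Sertoli list its change turned to -0.65, -0.32 and -0.92. Ciita, the transactivator of class II genes, was listed at 0 in Low-VCR 1, High-VCR 2, ALL 3 and NC 2 and at 0.506 to 2.28 CPM in the other libraries. Its change did not pass in any vincristine comparison, at 0.47 ± 1.00 (adjusted p 0.674) for VCR over NC, 0.49 ± 1.03 (adjusted p 0.686) for Low-VCR over ALL and 0.60 ± 1.02 (adjusted p 0.595) for High-VCR over ALL, with the groups overlapping. Ciita overlaps Dexi on the opposite strand in the annotation.

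**Figure D3:**
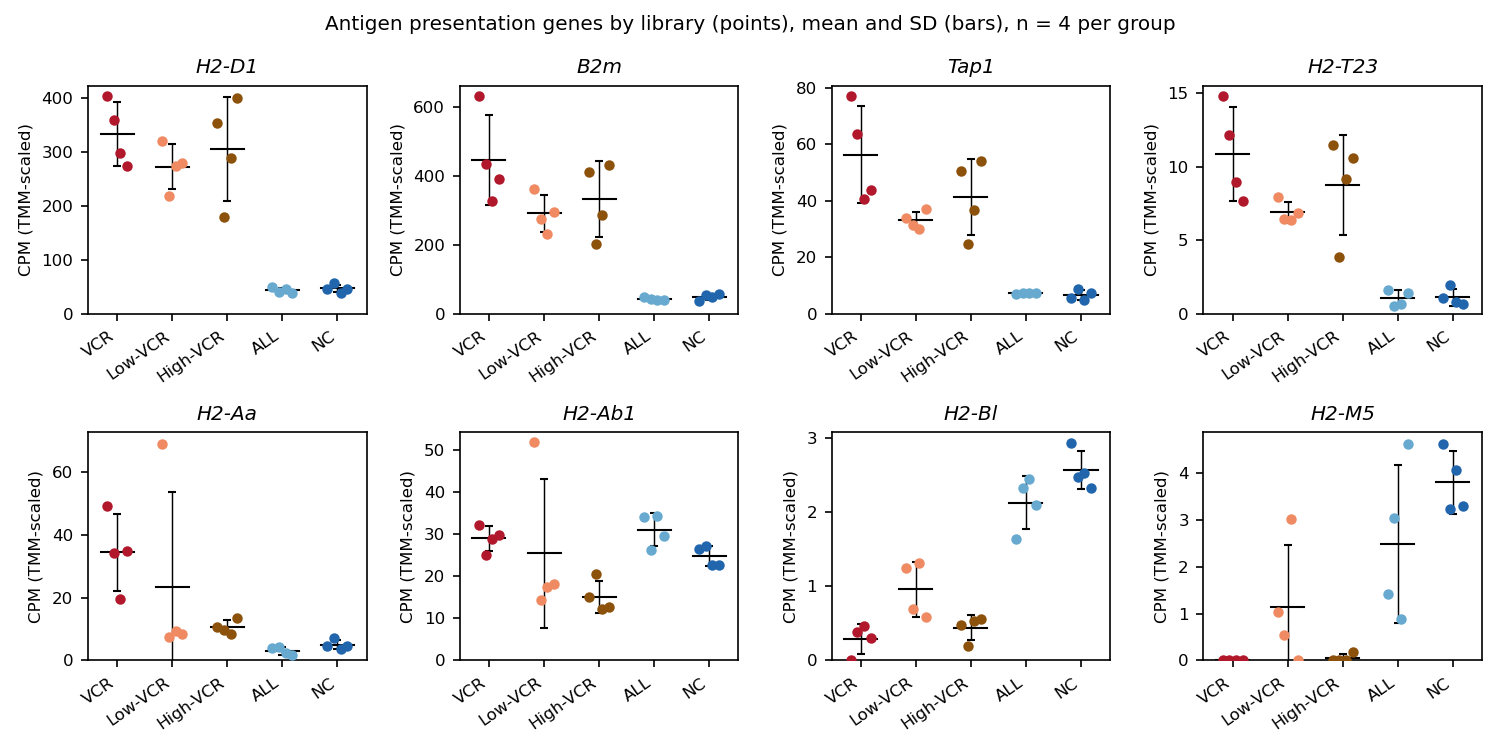
TMM-scaled CPM of 8 members in each library (points) with group means and SD (bars, cut off at 0), 4 libraries per group. H2-D1, B2m, Tap1 and H2-T23 lie higher in all treated groups, H2-Aa and H2-Ab1 differ in their pattern and share a high library, Low-VCR 1, and H2-Bl and H2-M5 lie lower in VCR and High-VCR than in ALL and NC.

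Of the 14 tested non-classical class I genes, 9 rose and 2 fell in VCR, 8 rose and 1 fell in Low-VCR, and 8 rose and 2 fell in High-VCR. Among all tested genes 42.1%, 36.4% and 42.4% rose and 35.6%, 15.2% and 30.5% fell. H2-T23, which encodes Qa-1, a ligand of receptors on NK cells and T cells, stood at 14.8, 12.1, 8.98 and 7.68 CPM in the VCR libraries, 7.93, 6.44, 6.36 and 6.82 in those of Low-VCR, 11.5, 3.89, 9.13 and 10.6 in those of High-VCR, 1.63, 0.506, 0.683 and 1.43 in those of ALL, and 1.1, 1.94, 0.775 and 0.675 in those of NC. It changed by 3.30 ± 0.40 (adjusted p 1.21e-06) for VCR over NC, 2.70 ± 0.40 (adjusted p 2.8e-05) for Low-VCR over ALL and 3.05 ± 0.40 (adjusted p 3.58e-06) for High-VCR over ALL, and remained higher scaled on the Sertoli list in VCR (1.09, log2) and Low-VCR (0.76, adjusted p 0.0499995) but not in High-VCR (0.75, adjusted p 0.052). These Low-VCR and High-VCR values are nearly the same and lie on either side of the limit. H2-M3, which presents N-formylated peptides, stood at 14.2, 12.4, 7.73 and 7.98 CPM in the VCR libraries, 10.4, 6.9, 7.47 and 9.14 in those of Low-VCR, 9.76, 5.45, 8.74 and 11.2 in those of High-VCR, 2.07, 2.12, 2.34 and 2.76 in those of ALL, and 1.46, 1.94, 2.33 and 2.1 in those of NC. It changed by 2.42 ± 0.26 (adjusted p 2.92e-07) for VCR over NC, 1.87 ± 0.25 (adjusted p 1.15e-05) for Low-VCR over ALL and 1.92 ± 0.25 (adjusted p 3.81e-06) for High-VCR over ALL, with no overlap between treated and untreated libraries, and scaled on the Sertoli list its change was 0.21, -0.06 and -0.35, none of which passed. H2-Q4, H2-Q6, H2-Q7, H2-T10 and H2-T24 rose in all 3 comparisons, by 1.00 to 2.86 (log2). H2-Q6 and H2-Q7 encode Qa-2 antigens, and H2-T10 and H2-T22 encode ligands of gamma-delta T cells. H2-T22 rose in VCR and High-VCR, at 1.90 and 1.99, and stood at 0.86 in Low-VCR without passing. H2-Q2 rose in VCR and Low-VCR (0.85 and 0.80) and was at 0.50 in High-VCR. Its call in Low-VCR was lost with the library range as a block (0.79, adjusted p 0.0615), and that in VCR without VCR 1 or NC 2 (highest adjusted p 0.0625). H2-Q1, H2-M10.2 and H2-M10.4, the last of a family known from the vomeronasal organ, passed in none of the comparisons. Scaled on the Sertoli list, 6 of the 14 were lower and 1 higher in VCR, 6 and 1 in Low-VCR and 6 and 0 in High-VCR, and H2-Q2 and H2-Q4 were among those lower. That scaling lowered the median of all genes as well.

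H2-M5, a non-classical class I gene of the M region, went the opposite way. Its raw counts were 0, 0, 0 and 0 counts in the VCR libraries, 15, 7, 46 and 0 in those of Low-VCR, 0, 0, 0 and 3 in those of High-VCR, 13, 30, 9 and 42 in those of ALL, and 38, 30, 42 and 44 in those of NC. No VCR library held a count, which by counting error alone allows at most the 3-count floor over the group. On that basis H2-M5 was at least 68.2-fold lower in VCR than in NC, where 154 counts were listed. The bound does not cover variation between samples. Of all genes with a mean of 20 to 50 counts in untreated libraries, 5.87% were listed at 0 in some untreated library. High-VCR held 3 counts, against 94 in ALL, a ratio of 51.7 (95% interval 17.2 to 255, counting error only). Low-VCR held 68 counts, and its change relative to ALL did not pass (-1.09 ± 0.78, adjusted p 0.235). Low-VCR 3 carried most of the Low-VCR counts, and without it the change passed at -2.21 (adjusted p 0.0383). Across comparisons H2-M5 fell in VCR (adjusted p 0.000106) and in High-VCR (adjusted p 0.00061).

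H2-Bl, a class I gene first described in the blastocyst, stood at 0, 0.38, 0.459 and 0.304 CPM in the VCR libraries, 1.24, 0.69, 1.31 and 0.58 in those of Low-VCR, 0.474, 0.195, 0.525 and 0.558 in those of High-VCR, 1.63, 2.33, 2.44 and 2.1 in those of ALL, and 2.92, 2.47, 2.52 and 2.32 in those of NC. It changed by -3.10 ± 0.47 (adjusted p 1.38e-05) for VCR over NC, -1.14 ± 0.41 (adjusted p 0.0292) for Low-VCR over ALL and -2.25 ± 0.44 (adjusted p 0.000221) for High-VCR over ALL, and each treated group lay below its own control without overlap. The call in Low-VCR was lost without Low-VCR 2, Low-VCR 4, ALL 2, ALL 3 or ALL 4, at -1.03, -0.96, -1.09, -1.06 and -1.15 (adjusted p 0.0524 to 0.081). Round spermatid markers moved with both genes, and their part in these changes was not tested. H2-Bl per round spermatid list was 0 to 0.00137 (VCR), 0.000828 to 0.000891 (Low-VCR), 0.000429 to 0.00127 (High-VCR), 0.000605 to 0.00103 (ALL) and 0.000981 to 0.00119 (NC). Apart from VCR 1 and High-VCR 2, the H2-Bl ratio in treated libraries lay within or above the range of the untreated ones. H2-M5 per round spermatid list was 0 to 0 (VCR), 0 to 0.00203 (Low-VCR), 0 to 0.000382 (High-VCR), 0.000371 to 0.00194 (ALL) and 0.00132 to 0.00188 (NC). Here VCR and 3 of 4 High-VCR libraries were at 0, while Low-VCR spanned the untreated range. The marker sums were only 22.6 to 488 CPM in VCR and 405 to 682 CPM in High-VCR. At the lowest untreated ratio, H2-M5 in such a library would be near or under the 3-count floor. A ratio of 0 therefore cannot show that a library lay below every untreated one. The same holds for the H2-Bl ratio of 0 in VCR 1.

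Class II genes did not move as a group. Of the 6 tested, 3 rose and 0 fell in VCR, 2 rose and 0 fell in Low-VCR, and 2 rose and 2 fell in High-VCR. Among all tested genes 42.1%, 36.4% and 42.4% rose and 35.6%, 15.2% and 30.5% fell. With 6 genes, these counts do not set class II apart from all tested genes. H2-Aa, the class II alpha chain, stood at 49.3, 34.2, 19.5 and 34.7 CPM in the VCR libraries, 68.9, 7.51, 9.44 and 8.27 in those of Low-VCR, 10.7, 9.66, 8.54 and 13.6 in those of High-VCR, 4.02, 4.25, 2.24 and 1.65 in those of ALL, and 4.63, 7.21, 3.59 and 4.65 in those of NC. It changed by 2.78 ± 0.62 (adjusted p 0.000578) for VCR over NC, 2.95 ± 0.64 (adjusted p 0.000963) for Low-VCR over ALL and 1.80 ± 0.63 (adjusted p 0.016) for High-VCR over ALL, with no overlap in any comparison, but scaled on the Sertoli list it did not pass and turned negative in High-VCR (-0.41). H2-Ab1, its beta-chain partner, stood at 32.3, 25, 29 and 29.9 CPM in the VCR libraries, 52.1, 14.3, 17.4 and 18.2 in those of Low-VCR, 15, 20.5, 12.2 and 12.7 in those of High-VCR, 34.1, 26.2, 34.4 and 29.7 in those of ALL, and 26.4, 27.3, 22.8 and 22.6 in those of NC. It changed by 0.23 ± 0.30 (adjusted p 0.493) for VCR over NC, -0.29 ± 0.30 (adjusted p 0.413) for Low-VCR over ALL and -1.04 ± 0.31 (adjusted p 0.00564) for High-VCR over ALL, so it fell in High-VCR alone, and scaled on the Sertoli or macrophage list it was lower in all 3 comparisons. The ratio of H2-Ab1 to H2-Aa CPM was 0.654 to 1.49 (VCR), 0.756 to 2.2 (Low-VCR), 0.93 to 2.12 (High-VCR), 6.17 to 17.9 (ALL) and 3.79 to 6.35 (NC). This ratio is not scaled for gene length and can be read between libraries only.

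H2-Eb1, the beta chain of I-E, stood at 10.5, 6.38, 4.33 and 6.46 CPM in the VCR libraries, 13.2, 0.996, 1.64 and 2.47 in those of Low-VCR, 3.12, 2.98, 2.3 and 2.79 in those of High-VCR, 1.3, 1.11, 1.46 and 1.1 in those of ALL, and 0.73, 0.861, 1.16 and 1.42 in those of NC. It changed by 2.69 ± 0.61 (adjusted p 0.00077) for VCR over NC, 1.87 ± 0.61 (adjusted p 0.0165) for Low-VCR over ALL and 1.16 ± 0.61 (adjusted p 0.0959) for High-VCR over ALL, and High-VCR did not overlap ALL although the call failed. With only the groups compared, H2-Eb1 passed in High-VCR (0.92, adjusted p 0.00512) and not in Low-VCR (1.88, adjusted p 0.0679). By library size alone it also passed in High-VCR (1.45, adjusted p 0.0452). Scaled on the Sertoli and macrophage lists it passed in no comparison, at 0.49 and 0.58 in VCR, 0.07 and 0.50 in Low-VCR and -1.03 and -0.58 in High-VCR. NOD mice make no I-E because the alpha-chain gene H2-Ea is defective, and H2-Ea held 8 counts over all 20 libraries. Cd74, the invariant chain, stood at 58.2, 40.2, 27.7 and 33.9 CPM in the VCR libraries, 69.2, 8.2, 10.7 and 12.6 in those of Low-VCR, 18.6, 11.5, 12.6 and 20.9 in those of High-VCR, 5.44, 2.53, 1.17 and 3.97 in those of ALL, and 2.92, 4.2, 2.52 and 5.1 in those of NC. It changed by 3.42 ± 0.62 (adjusted p 8.67e-05) for VCR over NC, 2.95 ± 0.62 (adjusted p 0.000733) for Low-VCR over ALL and 2.29 ± 0.61 (adjusted p 0.00296) for High-VCR over ALL, and treated libraries lay above untreated ones in each comparison. Scaled on the Sertoli list it did not pass (1.22, 1.14 and 0.03), while on the macrophage list it was higher in VCR and Low-VCR. Of the peptide-exchange genes, H2-DMb1 rose by 2.18 in VCR and 1.79 in High-VCR, and H2-DMb2 passed in no vincristine comparison. The H2-DMb1 call in High-VCR (adjusted p 0.0285) was lost without High-VCR 1, High-VCR 3, ALL 1, ALL 2 or ALL 3 (highest adjusted p 0.111, log2 changes 1.34 to 2.58 over all 8 leave-outs). H2-DMa fell by 0.64 in High-VCR (± 0.24, adjusted p 0.0251), which was lost without High-VCR 2 (-0.50, adjusted p 0.072) or ALL 2 (-0.61, adjusted p 0.0528), with the library range as a block (-0.63, adjusted p 0.0544) and by library size alone (-0.34, adjusted p 0.249). H2-DMa overlaps Brd2 on the opposite strand, and Brd2 stood at 161 ± 34.0 CPM in VCR, 197 ± 12.1 in Low-VCR, 178 ± 32.9 in High-VCR, 253 ± 17.0 in ALL and 257 ± 5.06 in NC (SD, n = 4). The filtered class II genes H2-Oa and H2-Ob, which modulate H2-DM, had counts in treated libraries and none in ALL or NC.

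The library Low-VCR 1 stood apart in class II genes. It held 68.9 CPM of H2-Aa, 52.1 of H2-Ab1, 13.2 of H2-Eb1 and 69.2 of Cd74, against 7.51 to 9.44, 14.3 to 18.2, 0.996 to 2.47 and 8.20 to 12.6 CPM in the other Low-VCR libraries. Its Ciita was listed at 0, and its macrophage list summed to 717 CPM, within the 653 to 764 CPM of the other 3 libraries. The list of 8 B-cell markers summed to 6.90 CPM in it, against 5.44 to 8.92 CPM in the other 3, and the dendritic cell list summed to 36.1 CPM, against 33.5 to 41.2 CPM in the other 3. Without Low-VCR 1, H2-Eb1 lost its call in Low-VCR relative to ALL (0.45, adjusted p 0.267) and H2-Ab1 fell (-0.90, adjusted p 0.000437), while H2-Aa (1.46) and Cd74 (1.69) still rose. H2-Q2 and H2-T24 in Low-VCR relative to ALL each lost their call in 5 of 8 fits that left out a library, H2-Q2 without Low-VCR 1, Low-VCR 3, ALL 1, ALL 2 or ALL 4 (highest adjusted p 0.184) and H2-T24 without Low-VCR 1, Low-VCR 4, ALL 1, ALL 3 or ALL 4 (highest adjusted p 0.0975).

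The other markers that could supply class II were read beside these values. Of 15 macrophage markers 14 rose and 1 fell in VCR, 13 rose and 1 fell in Low-VCR, and 14 rose and 1 fell in High-VCR. For this and the marker lists that follow, 42.1%, 36.4% and 42.4% of all tested genes rose. Those that fell were 35.6%, 15.2% and 30.5%. Summed Cd74 and H2-Aa per macrophage list was 0.056 to 0.081 (VCR), 0.024 to 0.193 (Low-VCR), 0.0224 to 0.0327 (High-VCR), 0.0126 to 0.0348 (ALL) and 0.0249 to 0.0431 (NC). VCR and the library Low-VCR 1 lay above all other libraries in this ratio, and the remaining Low-VCR and High-VCR libraries lay within the range of ALL and NC. Among the list genes, Aif1 went against the list, at 8.68 to 72.3 CPM in treated and 88.0 to 115.6 CPM in untreated libraries. The whole list summed to 246 to 309 CPM in untreated libraries. No ratio or scaling was computed without Aif1, so the order of the groups per macrophage list may depend on it. With H2-Ab1 and H2-Eb1 added to Cd74 and H2-Aa, the ratio was 0.0796 to 0.115 (VCR), 0.0475 to 0.284 (Low-VCR), 0.0377 to 0.069 (High-VCR), 0.11 to 0.165 (ALL) and 0.122 to 0.15 (NC). In this fuller ratio VCR lay below NC and High-VCR below ALL without overlap, as did all Low-VCR libraries but Low-VCR 1. Of 8 tested dendritic cell markers 2 rose and 5 fell in VCR, 2 rose and 0 fell in Low-VCR, and 3 rose and 4 fell in High-VCR, with Itgax among those that rose and Flt3 at 1.82 to 7.20 CPM in treated libraries. Of 8 B-cell markers 3 were tested and none rose, while Pax5 fell in VCR (-4.53) and High-VCR (-2.97). Of 9 T and NK cell markers 3 were tested: Trac and Cd4 rose in all 3 comparisons, while Cd3d fell in VCR (-2.73) and High-VCR (-1.67) and was at -1.01 in Low-VCR (adjusted p 0.0548). Cd3e was at most 0.646 CPM in any library. The list summed to 8.44 to 15.8 CPM (VCR), 12.5 to 14.7 (Low-VCR), 11.3 to 15.3 (High-VCR), 12.3 to 14.4 (ALL) and 9.59 to 14.1 (NC), with all groups overlapping. The part of any of these cells in the class II values was not tested.

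Of the supply genes of the class II pathway, 7 of 8 rose in VCR, 7 of 8 in Low-VCR and all 8 in High-VCR. Among all tested genes 42.1%, 36.4% and 42.4% rose. The cathepsin Ctss, which degrades the invariant chain, rose by 3.51, 2.30 and 2.80 and the reductase Ifi30 by 2.54, 1.75 and 1.99 (log2). Of the class I loading and trimming genes, 2 rose and 3 fell in VCR and 3 rose and 2 fell in each of Low-VCR and High-VCR. The aminopeptidase Erap1, which trims peptides in the endoplasmic reticulum, rose by 2.23, 1.89 and 2.51, while the cytosolic proteases Ide and Tpp2 fell in every comparison (Tpp2 by 1.16, 0.58 and 0.86). The proteasome activator subunits Psme1 and Psme2 rose by 2.84 and 2.60 in VCR, 2.07 and 2.04 in Low-VCR and 2.43 and 2.34 in High-VCR. Psme4, Psme3 and Pomp of the same list ranged over 210 to 678, 65.1 to 114 and 63.2 to 106 CPM in treated libraries. In untreated libraries they ranged over 655 to 1041, 86.0 to 119 and 39.6 to 55.6 CPM. The whole list averaged 855 CPM in VCR and 956 in NC. It averaged 911 CPM in Low-VCR and 910 in High-VCR, against 1146 in ALL. Among the factors that bind the X and Y boxes, Nfyb rose in all 3 comparisons, Nfyc rose in VCR (0.30) and did not pass in Low-VCR (0.17) or High-VCR (0.13), and Creb1 fell in all 3. Nfya, a subunit of the Y-box factor NF-Y, stood at 0.0726 to 14.9 CPM in treated libraries, below the 17.4 to 21.0 CPM of untreated ones, but its change did not pass (-1.40, -1.12 and -0.75, adjusted p 0.061, 0.149 and 0.297). Rfx5, Rfxank and Rfxap did not pass.

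Of the genes of the interferon-gamma and IRF pathway, 8, 7 and 8 of 9 tested rose, where 42.1%, 36.4% and 42.4% of all tested genes did. In mean summed CPM this list stood at 532 in VCR and 151 in NC. The Sertoli list stood at 11567 and 2497 there, the macrophage list at 1100 and 255, and the type I interferon list at 302 and 43.5. The part of cell composition in these rises was not tested. Irf1, which drives class I genes, rose by 2.83, 2.79 and 3.03 (log2) in VCR, Low-VCR and High-VCR. Interferon gamma itself, Ifng, stood at 0 to 0.153 CPM over the 20 libraries. Of 10 type I interferon-inducible genes 9 rose in each comparison. The 5 tested MHC-like genes outside the H2 region (Cd1d1, Mr1, Fcgrt, Hfe and Procr) rose in each comparison. The median log2 fold change of the type I interferon genes was 2.89, 2.33 and 2.42.

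**Figure D4:**
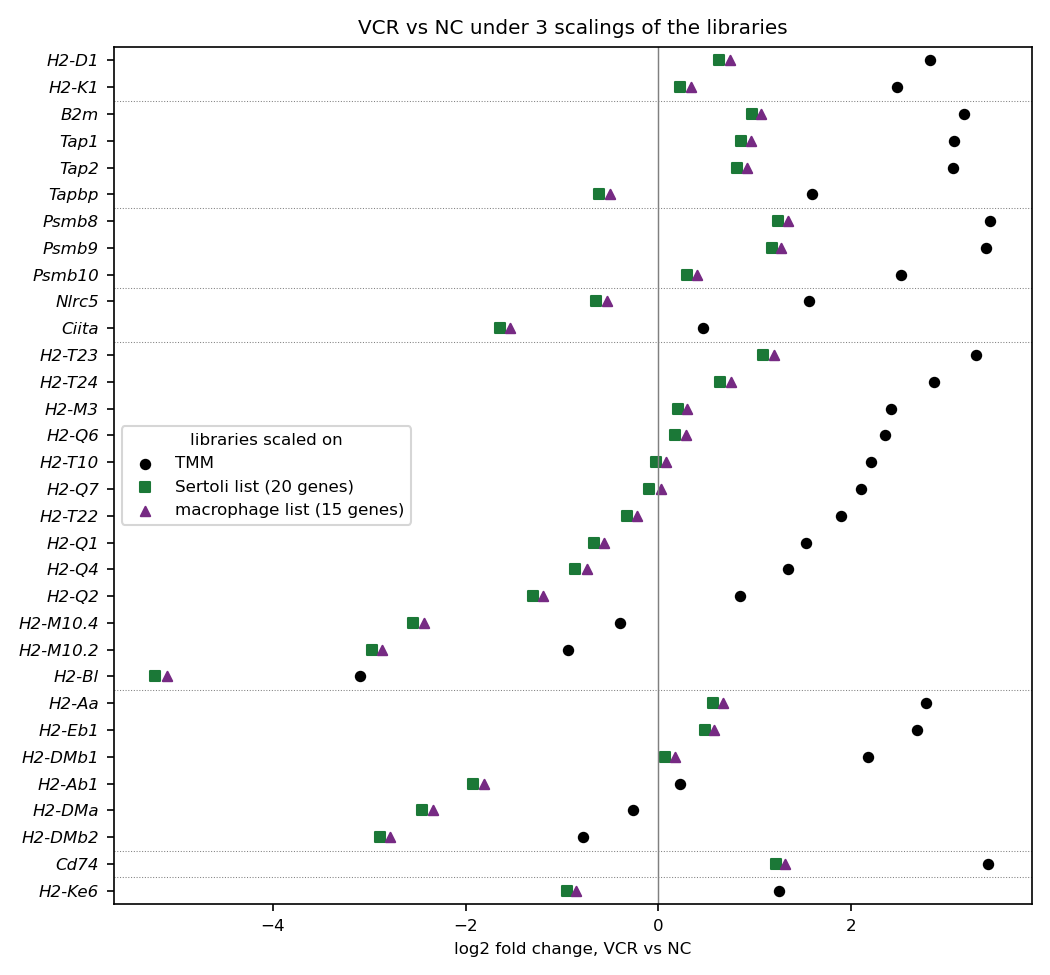
Log2 fold changes of 32 tested members in VCR relative to NC with libraries scaled by TMM (circles), on 20 Sertoli cell markers (squares) or on 15 macrophage markers (triangles); a point to the right of 0 is higher in VCR. H2-D1, B2m, Tap1, Tap2, Psmb8 and Psmb9 lie right of 0 under all 3, H2-Ab1, Nlrc5, Ciita and Tapbp change sign with the scaling, and H2-Bl lies left of 0 under all 3.

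The engrafted groups were also set against each other and against VCR. High-VCR relative to Low-VCR gave 0 higher members (1 at an unadjusted p under 0.05, 0 by DESeq2) and 2 lower, against 7.81% of all genes called, 3.13% higher and 4.69% lower. H2-M5 had 3 counts in High-VCR, against 68 in Low-VCR, a ratio of 25.4 (95% interval 8.32 to 126). Its call (adjusted p 0.0385) was lost without Low-VCR 1, Low-VCR 3, High-VCR 1, High-VCR 3 or High-VCR 4, at adjusted p 0.085, 0.132, 0.118, 0.0707 and 0.0929. H2-DMa was lower (-0.81 ± 0.24, adjusted p 0.0454). That call was lost without Low-VCR 1, Low-VCR 3 or any single High-VCR library, at adjusted p 0.0595 to 0.155.

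Relative to VCR, 2 members were higher and 5 lower in Low-VCR, against 30.2% of all genes called, 16.7% higher and 13.6% lower. The lower ones were Tap2 (-0.86 ± 0.24, adjusted p 0.0165), Psmb8 (-0.81 ± 0.24, adjusted p 0.0204), Tap1 (-0.77 ± 0.23, adjusted p 0.0222), Psmb10 (-0.60 ± 0.20, adjusted p 0.0311) and H2-Ke6. The higher ones were H2-Bl (1.70 ± 0.48, adjusted p 0.0168) and H2-M5 (adjusted p 0.00915). H2-M5 had 68 counts in Low-VCR, against 0 in VCR, or by counting error alone at least 21.9-fold higher. Without VCR 1 or VCR 2 no member was lower, without Low-VCR 2 or Low-VCR 3 the count was 2, and without VCR 3 it was 9. Without Low-VCR 1, H2-Aa (-2.03), H2-Eb1 (-2.01), Cd74 (-1.93) and H2-Ab1 (-0.80) were lower in Low-VCR than in VCR (adjusted p 0.00806, 0.00806, 0.0114 and 0.0128). These comparisons set engrafted groups against a group of another library range.

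High-VCR relative to VCR gave 0 higher and 0 lower members by edgeR and by DESeq2 (0 and 5 at an unadjusted p under 0.05), against 0.00605% and 0% of all genes. The smallest p belonged to H2-Ab1 (-0.95 ± 0.30, adjusted p 0.447), H2-Aa (-1.69 ± 0.58, adjusted p 0.47) and H2-Ke6 (-0.49 ± 0.19, adjusted p 0.528), none of which passed. ALL relative to NC gave 0 members by edgeR and by DESeq2, and 0 at an unadjusted p under 0.05, against 0% of all genes called. The nearest were H2-M10.4 (-0.44 ± 0.27, adjusted p 1), Psmb10 (-0.35 ± 0.22, adjusted p 1) and Tap2 (-0.32 ± 0.26, adjusted p 1).

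Whether the response to vincristine differed between engrafted and non-engrafted mice was tested as an interaction. For Low-VCR relative to ALL against VCR relative to NC, 1 member was higher (H2-M5, adjusted p 0.0421), against 5.07% of all genes called and 3.81% higher. The 68 counts in Low-VCR and 94 in ALL stood against 0 in VCR and 154 in NC. The call was lost without VCR 2, Low-VCR 1, Low-VCR 3, or any single ALL or NC library (adjusted p 0.0599 to 0.0822). Over all alternatives its adjusted p ran from 0.00189 to 0.0864. For High-VCR relative to ALL against VCR relative to NC, 0 members were called by edgeR or DESeq2 (0 higher and 1 lower at an unadjusted p under 0.05), against 0.00605% of all genes. The smallest p belonged to H2-Ab1 (-1.27 ± 0.43, adjusted p 0.97), H2-Eb1 (-1.53 ± 0.87, adjusted p 0.97) and H2-Ke6 (-0.47 ± 0.27, adjusted p 0.97), none of which passed.

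Members under the filter were read from their counts alone, and their bounds and intervals cover counting error only. H2-M2 had 31 counts in VCR, against 1 in NC (ratio 23.3, 95% interval 3.89 to 950.3), 27 in Low-VCR and 14 in High-VCR, against 0 in ALL, at least 6.11-fold and 2.83-fold higher. H2-Oa had 15 counts in VCR, against 0 in NC, at least 3.76-fold higher. H2-M11 had 1 count in VCR, against 17 in NC, a ratio of 22.6 (95% interval 3.54 to 945). H2-T3, the TL antigen gene, had 0 counts in High-VCR, against 9 in ALL, at least 4.95-fold lower, and 0 counts in VCR. H2-Q10, a secreted class I gene, H2-Ob, H2-M9 and H2-M10.3 held 17, 18, 50 and 31 counts over all libraries. H2-M10.1, H2-M10.5, H2-M10.6, H2-M1, H2-Q5, H2-Eb2 and H2-Ea, with 0 to 8 counts each over all libraries, did not meet the minimum of 10.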

How the data were processed

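Per the labels, RNA came from snap-frozen testis by TRIzol, and oligo-dT selection preceded directional library preparation. The submitters' processing notes name Trimmomatic 0.39, STAR 2.7.10b, featureCounts in Subread 2.0.3, DESeq2 1.36.0 and GRCm39. The annotation, the strand setting and the handling of multimapped and human reads are not given in the sources used here. Raw counts per gene symbol were deposited by the authors for all 20 samples. From these, edgeR 4.0.16 in R 4.3.3 (limma 3.58.1) fitted 5 group means over 20 libraries with TMM scaling, filterByExpr at a minimum count of 10 and the robust quasi-likelihood test, and p-values were adjusted by Benjamini-Hochberg over 16534 genes and called under 0.05. CPM are TMM-scaled. Library totals were 9.43 to 16.4 M counts, and intervals and 3-count floors cover counting error only. Genes with 0 counts in a group are given as bounds. The labels do not say that each sample is a separate mouse, and a p-value here reflects only how far these samples vary, which may be technical. Among 30 replicate pairs none agreed within counting noise (chi-square per degree of freedom 3.78 to 237).

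Members and lists were chosen with earlier results of these data known. Genes with full statistics were 14 members set by their role in each drug comparison, every member that fell there, and in other comparisons up to 6 called members or the 3 with the smallest p. Alternatives were DESeq2 1.42.0 (test and size factors), library size alone, scaling on marker lists, other filters, a replicate block, a library range block, fits of the compared groups only and leaving out each library. The fits were tested on simulated data with the same spread in every group and no shift in cell composition. In the data themselves the coefficient of variation beyond counting noise was 9.33% in ALL, 14.0% in NC and 47.1% in VCR. That simulation therefore cannot show how well the p-values hold here. Promoters were read from RefSeq's GRCm38.p6 table, and gene overlaps from GENCODE vM21. Rows with no gene name numbered 0.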

Additional observations from a re-analysis of the deposited data

Results flagged for a closer look

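The highest or lowest of 4 libraries stood apart from the other 3 by a Dixon test in 9 of 164 gene and group pairs, and chance flags about 1 in 20 groups. Of these, 5 were in the library Low-VCR 1, where H2-Aa (68.89 CPM), H2-Ab1 (52.07 CPM), H2-Eb1 (13.24 CPM) and Cd74 (69.17 CPM) were the highest of the group and Ciita (0 CPM) was the lowest. The others were H2-DMb1 at 0.4303 CPM in NC 2, H2-Q1 at 0.4845 CPM in NC 3, H2-M5 at 0.1674 CPM in High-VCR 4 (3 counts, the other 3 libraries at 0) and H2-T22 at 0.8431 CPM, the lowest of its group, in High-VCR 2.

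The vincristine response of H2-M5 differed between Low-VCR relative to ALL and VCR relative to NC by the interaction test (edgeR adjusted p 0.04208). This call was lost in 11 of 16 fits that left out a library. It was also lost on the Sertoli list, with the replicate block and with only the groups compared (edgeR adjusted p 0.0679, 0.0864 and 0.0514).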

How the results depend on the processing

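The number of members that rose in VCR relative to NC was 8 scaled on the Sertoli list and 9 on the macrophage list, with 11 and 11 lower. Both scalings lowered the median of all genes. The share of all calls that were higher is given below for the Sertoli list and is not given for the macrophage list. In Low-VCR relative to ALL 7 and 13 were higher and 11 and 9 lower, 0 were lower by library size alone, and 0 to 2 were lower leaving out each library. In High-VCR relative to ALL 5 and 8 were higher and 12 and 10 lower. In High-VCR relative to Low-VCR the lower count was 1 by DESeq2 size factors, 1 by library size alone, 4 on the macrophage list, 0 with the replicate block, 0 with only the groups compared, 0 with the library range block and 0 to 2 leaving out each library, with 0 to 1 higher. In Low-VCR relative to VCR 4 were higher on the macrophage list and 0 with only the groups compared, and the lower count was 8 by library size alone, 0 on the Sertoli list, 0 on the macrophage list, 0 with only the groups compared and 0 to 9 leaving out each library. The interaction of Low-VCR relative to ALL gave 0 higher on the Sertoli list, 5 on the macrophage list, 2 by the DESeq2 test, 0 with the replicate block, 0 with only the groups compared and 0 to 2 leaving out each library. The replicate numbers did not pair the samples (correlations -0.384 to 0.526).

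Of the 33 tested members, 11, 15 and 16 turned sign on the Sertoli list in VCR, Low-VCR and High-VCR, and 9, 9 and 10 on the macrophage list, with H2-Ke6, H2-Q1, H2-Q2, H2-Q4, Tapbp and Ciita in every case. Among genes given with full statistics, the log2 changes that turned sign were, on the Sertoli and macrophage lists in VCR relative to NC, H2-Ab1 (-1.93, -1.81), Ciita (-1.64, -1.54) and Nlrc5 (-0.65, -0.53), and H2-DMa by library size alone (0.13). In Low-VCR relative to ALL they were Ciita (-1.53, -0.90), Nlrc5 on the Sertoli list (-0.32), H2-M3 on the Sertoli list (-0.0648) and H2-DMa (-1.74, -1.20, by DESeq2 size factors -0.0047, and -0.0331 to 0.346 leaving out each library, negative without Low-VCR 1). In High-VCR relative to ALL they were H2-Eb1 (-1.03, -0.58), Ciita (-1.73, -1.30), Nlrc5 (-0.92, -0.48), and H2-M3 (-0.35) and H2-Aa (-0.41) on the Sertoli list. Psmb10 in Low-VCR relative to VCR was 0.0126 on the macrophage list. The cause was not tested. Over 66 gene results, 1056 alternative values kept direction and call, 94 lost and 10 gained the call. Calls higher among all called genes were 54.2%, 70.6% and 58.2% in VCR, Low-VCR and High-VCR, 65.0%, 89.3% and 68.6% by library size alone, 50.0%, 52.9% and 51.1% by DESeq2 size factors, and 5.27%, 1.78% and 3.17% on the Sertoli list.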
